A study of Mus musculus with 6 samples.

Results

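Pulmonary surfactant is the lipid and protein film that lowers surface tension in the alveoli. It is made by type 2 alveolar epithelial cells, which store it in lysosome-related organelles called lamellar bodies and also act as progenitors of the alveolar epithelium. A fixed set of 10 genes of this system was followed in the mouse lung after bleomycin, a DNA-damaging drug used to produce experimental lung fibrosis. The set comprised the surfactant proteins Sftpa1, Sftpb, Sftpc and Sftpd, the lamellar body genes Abca3 and Lamp3, the proteases Napsa and Ctsh, the lipid-remodelling enzyme Lpcat1 and the transcription factor Etv5. The set is a list of gene names, and it was drawn up with earlier results of these data known. Of these 10, 9 could be read among the 12393 genes with a named probe set (a group of short probes for one transcript). The only Lamp3 probe set carries a second gene symbol, so Lamp3 has no value here.

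The 6 Affymetrix MOE430A arrays measured RNA of pulverised whole lung, one array per mouse. The bleomycin group was 3 mice (D, E and F) given 1 mg/kg in 50 µl of saline, and the saline group was 3 mice (A, B and C). The design text gives the route as oropharyngeal and the array labels as intratracheal, so the route is not settled here. All were labelled as male wild-type C57BL/6J mice aged 8 to 10 weeks, and lungs were taken at day 14 with the trachea and large airways removed. Values are log2 expression, so a difference of 1 is a doubling of signal.

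The array labelled saline B stood apart from its label. Xist, the transcript of the inactive X chromosome, read 11.40 there, against 7.23 to 7.88 on the other 5 arrays, and the Y-linked Eif2s3y read 4.05, against 7.23 to 8.02. On the first principal component, which held 55.4% of the variance, bleomycin D scored 44.3, against 12.9 and 19.8 for bleomycin E and F and -28.6 to -21.4 for the saline arrays. For the measured genes of the set, values that moved by over 1.5 times without saline B or bleomycin D are given with and without that array.

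The measured genes lay high in the range of the arrays. On every array 7 of the 9 measured genes lay in the top 5% of probe sets, and the genes outside it were Abca3 and Etv5. Sftpc was the highest probe set of all on 1 bleomycin and 2 saline arrays and was never more than 0.25 below an array's highest value. Sftpa1 lay 0.72 to 1.10 and Sftpd 0.91 to 1.32 below it. Scanner saturation was not tested, and differences of genes this close to the top of the range are given with that limit. In whole-lung RNA, fewer type 2 cells and less RNA per type 2 cell cannot be told apart.

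At day 14 after bleomycin, the cysteine protease gene Ctsh was higher, 1.90-fold, and no other measured gene of the set passed the test. The comparison used limma across all probe sets with Benjamini-Hochberg adjustment and a threshold of 0.05. In direction, 5 of the 9 differences lay below 0 and 4 above it. Over all 12393 genes, 7060 differences lay below 0 and 5333 above it. The median of the 9 differences was -0.20 log2 units, against -0.04 over all genes. By the same test 3.70% of all genes were higher after bleomycin and 1.90% lower, so 1 higher and 0 lower among 9 is a small count on either side. Besides Ctsh, 1 gene, Lpcat1, had an unadjusted p under 0.05, where over all genes 11.7% were higher and 11.0% lower by that measure.

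**Figure D1:**
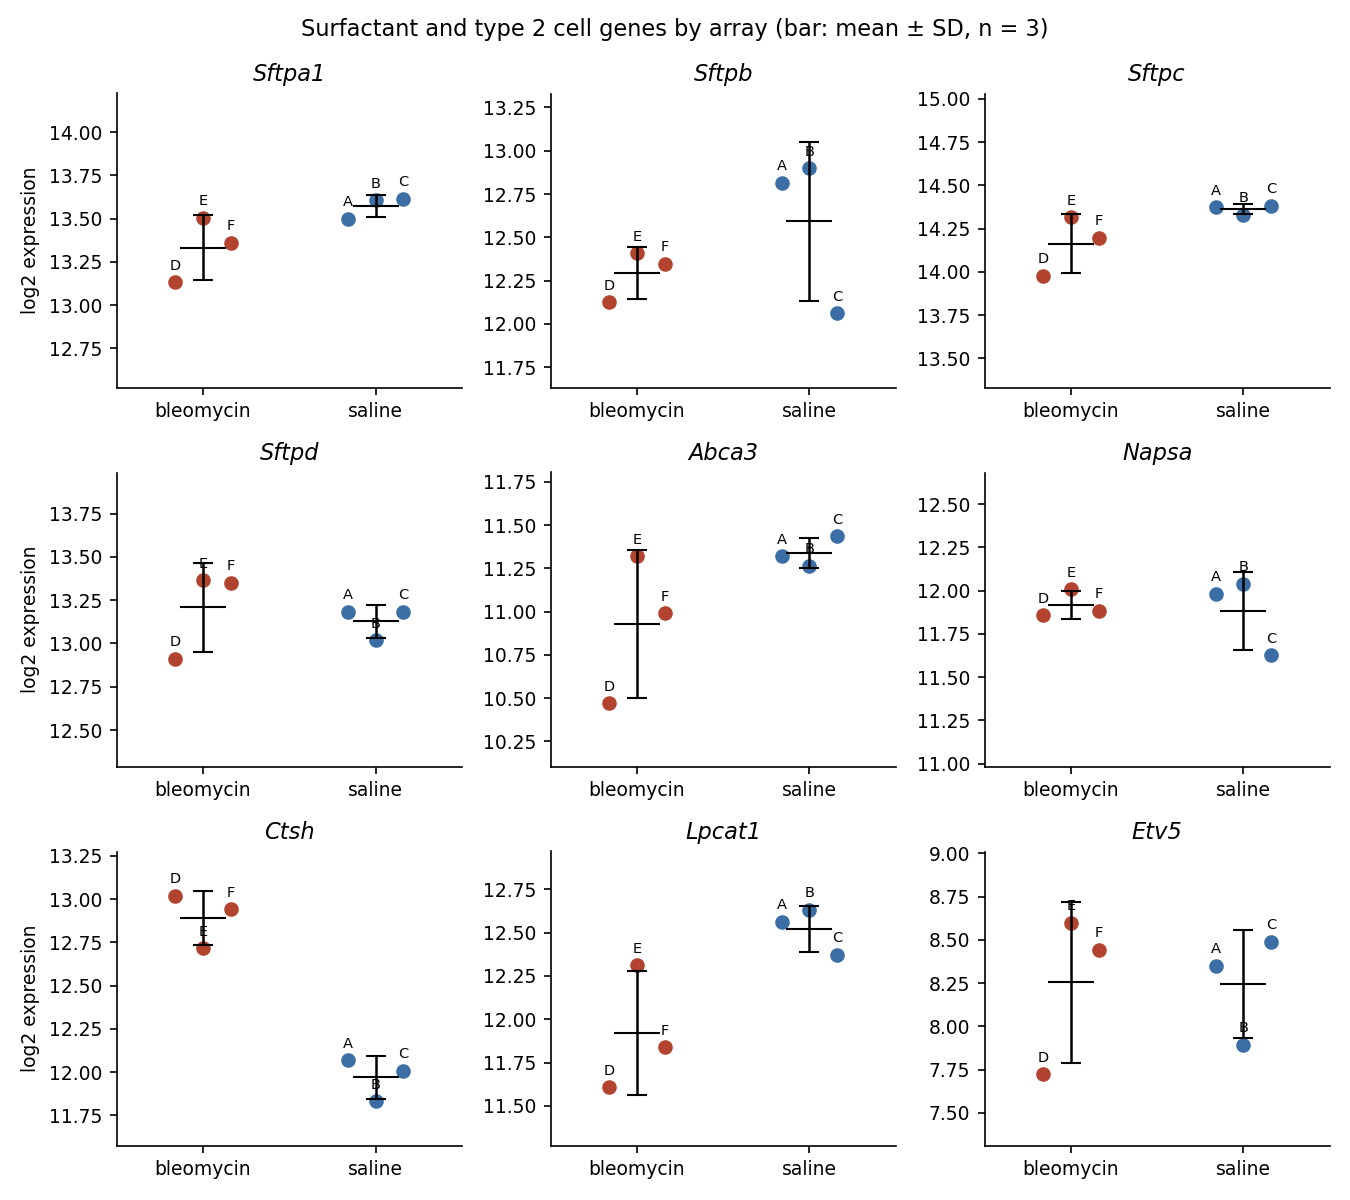
Log2 expression of the 9 measured genes on each array, with bleomycin arrays D, E and F in red and saline arrays A, B and C in blue. Points are arrays, the wide black bar is the group mean and the whiskers are the SD (n = 3 each). Every panel spans the same log2 range around its own centre. Ctsh is the panel with a wide gap between groups, with bleomycin arrays from 12.72 to 13.02 and saline arrays from 11.83 to 12.07.

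Sftpb and Sftpc encode the small hydrophobic surfactant proteins B and C, which spread the lipid film. Sftpb read 12.12, 12.41 and 12.35 on bleomycin D, E and F, against 12.82, 12.90 and 12.06 on saline A, B and C. Saline C was the lowest array of all and the groups overlapped. The difference was -0.30 ± 0.21 log2 units (SE, adjusted p = 0.46), with a 95% interval from -0.79 to 0.19. Its size depended on the saline arrays, at -0.19 without saline A (adjusted p = 0.673), -0.15 without saline B (0.778) and -0.56 without saline C (0.0862). With array weights it was -0.16 (adjusted p = 0.652).

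Sftpc, the gene most used to identify type 2 cells, read 13.98, 14.32 and 14.20 on bleomycin D, E and F, against 14.37, 14.33 and 14.38 on saline A, B and C. All bleomycin arrays lay below all saline arrays, bleomycin E by a margin smaller than the spread of either group. The difference was -0.20 ± 0.12 (SE, adjusted p = 0.369), with a 95% interval from -0.47 to 0.07. Without bleomycin D it was -0.11 (adjusted p = 0.692), and with repeated quantile normalization -0.12 (0.613). A second Sftpc probe set, which read 4.15 to 4.39 on the 6 arrays, lay near the bottom of the range and differed by 0.01.

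Sftpa1 and Sftpd encode surfactant proteins A and D, collagen-containing lectins that bind microbes and assist their clearance by macrophages. Sftpa1 read 13.13, 13.51 and 13.36 on bleomycin D, E and F, against 13.50, 13.61 and 13.61 on saline A, B and C. Bleomycin E lay just above saline A, so the groups overlapped, and the difference was -0.24 ± 0.12 (SE, adjusted p = 0.306, 95% interval -0.52 to 0.04). Without bleomycin D it was -0.14 (adjusted p = 0.608). Its dimmer probe set differed by -0.29.

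Sftpd read 12.91, 13.37 and 13.35 on bleomycin D, E and F, against 13.18, 13.02 and 13.18 on saline A, B and C. Bleomycin D was the lowest array and bleomycin E and F the highest. The difference was 0.08 ± 0.14 (SE, adjusted p = 0.789, 95% interval -0.25 to 0.41), and 0.23 without bleomycin D (adjusted p = 0.382). Without saline B it was 0.03 (adjusted p = 0.956), and without bleomycin E or F it was under 0.01 (0.994 and 0.983).

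The sequences before 2 of these genes are shown because transcription factors with known sites there were also on the arrays. Both are the 250 bases before the RefSeq transcription start, on the plus strand of GRCm38.p6, with Sftpb at chr6:72304360-72304609 and Sftpa1 at chr14:41131538-41131787. Capitals mark CTCAAG, a core motif of the lung and thyroid factor Nkx2-1, and TGTTTNC, a forkhead motif, each searched on both strands.
Sftpb: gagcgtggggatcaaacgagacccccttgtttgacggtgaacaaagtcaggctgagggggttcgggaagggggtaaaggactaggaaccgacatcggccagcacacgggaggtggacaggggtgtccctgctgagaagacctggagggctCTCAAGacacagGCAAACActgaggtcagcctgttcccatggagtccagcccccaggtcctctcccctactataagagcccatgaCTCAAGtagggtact
Sftpa1: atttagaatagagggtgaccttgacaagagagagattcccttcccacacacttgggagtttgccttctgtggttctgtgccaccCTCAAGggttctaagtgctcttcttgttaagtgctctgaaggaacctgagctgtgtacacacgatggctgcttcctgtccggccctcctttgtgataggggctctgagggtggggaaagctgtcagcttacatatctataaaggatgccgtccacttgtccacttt

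The Sftpb stretch holds CTCAAG 2 times, ending 95 and 10 bases before the start, and between them 1 reverse-strand forkhead match, which ends 82 bases before it. The Sftpa1 stretch holds CTCAAG once, 161 bases before the start, and no forkhead match. Over 32851 RefSeq mouse promoter stretches of this length, 13.3% hold CTCAAG and 17.8% TGTTTNC, so a match by itself is common. None of the motifs overlap in the 2 stretches shown. Promoter entries were found for 6 of the 10 genes. Sftpb and Sftpa1 were the only ones of these with CTCAAG, so the stretches shown do not stand for the set. Lamp3 held 2 forkhead matches and Etv5 held 1, in 1 of its entries, while Lpcat1 and Abca3 held neither motif.

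Of 16 transcription factors of the alveolar epithelium, 0 were higher and 1 lower. The one that fell was Foxa1, a forkhead factor of endoderm-derived epithelium. It read 9.25, 9.41 and 9.34 on bleomycin D, E and F, against 10.36, 10.11 and 10.25 on saline A, B and C. The groups were far apart relative to their spread, and Foxa1 fell by 0.90 ± 0.11 log2 units (SE, adjusted p = 0.00471). The related Foxa2 differed by -0.32 (adjusted p = 0.443) and Nkx2-1 by -0.23 (adjusted p = 0.318), while Cebpa, a factor of type 2 cell maturation, differed by -0.03 (adjusted p = 0.909). The Nkx2-1 probe set was dim, at 6.07 to 6.58 on the 6 arrays, below the median of every array (7.37 to 7.41). Its bleomycin arrays all lay below its saline arrays, which held for 9 of the 16 factors and for 14.6% of all genes. The list median was -0.32, and 13 of the 16 differences lay below 0. At an unadjusted p under 0.05, 2 factors were higher and 6 lower. Some alternative fits called 2 of these factors lower.

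Among the genes of surfactant lipid handling, Lpcat1 was the lowest of the set in its difference. It encodes the acyltransferase that makes dipalmitoylphosphatidylcholine, the main lipid of surfactant. Lpcat1 read 11.61, 12.31 and 11.84 on bleomycin D, E and F, against 12.56, 12.63 and 12.37 on saline A, B and C. All bleomycin arrays lay below all saline arrays, bleomycin E only just. The difference was -0.60 ± 0.18 (SE, adjusted p = 0.0973), with a 95% interval from -1.01 to -0.20.

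Lpcat1 did not pass in the main fit, and among the alternatives it passed only without bleomycin E. Without bleomycin E the difference was -0.80 with an adjusted p of 0.0284, and without bleomycin D it was -0.45 with an adjusted p of 0.228. Its other 2 probe sets differed by -0.35 and -0.24 (adjusted p = 0.215 and 0.39), and the mean of all 3 by -0.40 (adjusted p = 0.147). Sftpc and Lpcat1 were the genes of the set whose bleomycin arrays all lay below the saline arrays, 2 of 9, where this held for 14.6% of all genes.

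Abca3 encodes the transporter that pumps phospholipid into lamellar bodies. It read 10.47, 11.32 and 10.99 on bleomycin D, E and F, against 11.32, 11.26 and 11.44 on saline A, B and C. Bleomycin D was far below the rest and bleomycin E lay within the saline range. The difference was -0.41 ± 0.20 (SE, adjusted p = 0.272, 95% interval -0.86 to 0.04), and -0.19 without bleomycin D (adjusted p = 0.56). The 3 probe sets of Abca3 disagree in direction, with differences of -0.41, 0.05 and -0.48, the last from a dim probe set that read 5.39 to 6.10 (adjusted p = 0.0748).

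Of 20 further genes of surfactant lipid synthesis, 1 rose and 1 fell, and the median difference was -0.06. Lpcat3, a phospholipid acyltransferase for polyunsaturated chains, rose 1.64-fold (10.53 ± 0.06 after bleomycin and 9.83 ± 0.16 after saline, SD, n = 3 each, adjusted p = 0.015). Gpam, which starts glycerolipid synthesis in mitochondria, fell by 0.75 (10.09 ± 0.24 after bleomycin and 10.84 ± 0.10 after saline, SD, n = 3 each, adjusted p = 0.0238). Fasn, the fatty acid synthase, differed by 0.15 (adjusted p = 0.705), and Pcyt1a, which sets the rate of phosphatidylcholine synthesis, by 0.13 (adjusted p = 0.61). The call on Gpam held without bleomycin E and was lost without any other single array (adjusted p = 0.0504 to 0.091). That on Lpcat3 was lost without saline A (0.058), saline C (0.0538) or bleomycin F (0.064).

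Ctsh and Napsa encode proteases that cut the precursor of surfactant protein B, and Ctsh is also described as trimming that of surfactant protein C. Ctsh read 13.02, 12.72 and 12.94 on bleomycin D, E and F, against 12.07, 11.83 and 12.01 on saline A, B and C. The groups did not overlap, which held in the upward direction for 13.3% of all genes. The gap between them was also wider than the spread in either, a property not counted over all genes. The rise was 0.92 ± 0.12 log2 units (SE, adjusted p = 0.00668), or 1.90-fold with a 95% interval from 1.56 to 2.31. The call held in all 6 fits with 1 array left out, where the difference was 0.85 to 1.01 and the adjusted p 0.00941 to 0.0352. Without saline B it was 0.85 (adjusted p = 0.0232).

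Napsa, the aspartic protease napsin A, read 11.86, 12.01 and 11.88 on bleomycin D, E and F, against 11.98, 12.04 and 11.63 on saline A, B and C. All bleomycin values lay within the range of the saline values. The difference was 0.03 ± 0.13 (SE, adjusted p = 0.91, 95% interval -0.27 to 0.34). It was 0.11 without saline B and 0.06 without bleomycin D, and its sign turned under 4 of the alternatives.

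**Figure D2:**
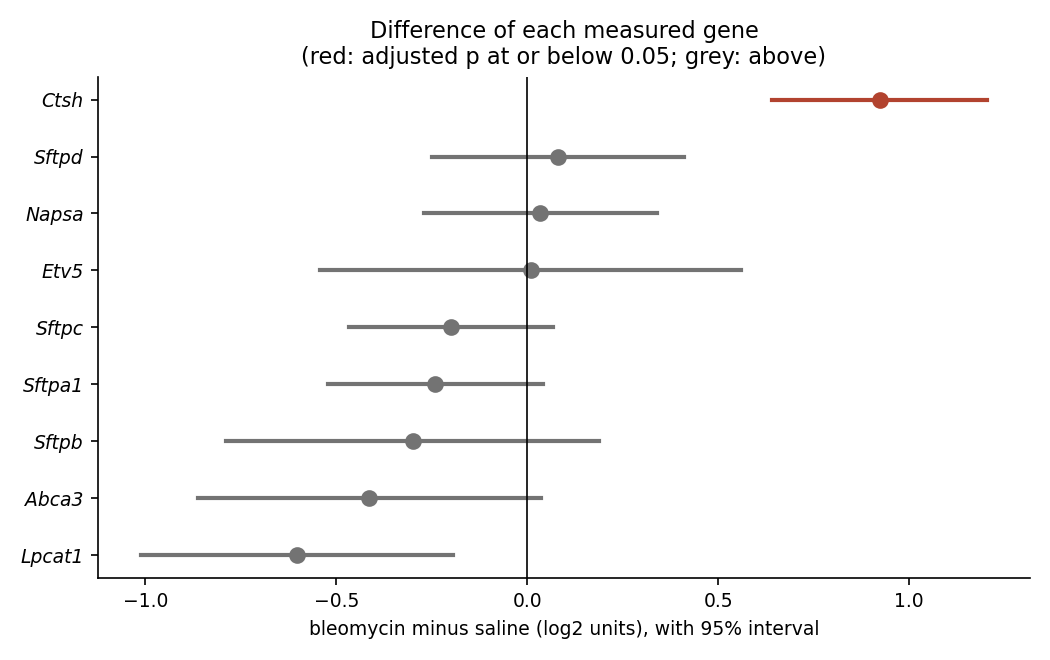
Difference between bleomycin and saline (log2 units, x axis) for each of the 9 measured genes, as bleomycin minus saline, with its 95% interval from limma. Ctsh, in red, passed an adjusted p of 0.05, and the 8 genes in grey did not. The interval of Lpcat1, from -1.01 to -0.20, also leaves out 0, but it is not adjusted for the number of genes tested.

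Ctsh is not restricted to type 2 cells and is also expressed by macrophages. Of 12 macrophage markers 7 rose and 0 fell, and their mean level per array was 9.85 to 10.15 after bleomycin and 8.84 to 9.15 after saline. The lysosomal protein gene Cd68 rose 6.43-fold, the integrin gene Itgax 3.50-fold, the Fc receptor gene Fcgr1 2.98-fold and the protease gene Ctss 2.75-fold. The 5 markers that did not pass were Csf1r, Marco, Chil3, Mertk and Siglec1. Siglec1 was the only marker below 0 (-0.26, adjusted p = 0.344), and the other differences among them were 0.03 to 0.46. No marker of the list was at 0, since array values have no true zero, and the dimmest in saline lungs, Itgam, averaged 5.45 there. Of 10 markers of mature dendritic cells 4 rose and 0 fell, with a mean level per array of 8.22 to 8.48 after bleomycin and 7.77 to 7.89 after saline. These were the chemokine gene Ccl17, 3.21-fold, Cd83, 1.71-fold, Fscn1, 1.65-fold, and Relb, 1.65-fold. Of the 10 differences 8 lay above 0 and 2 below it, Socs2 (-0.43, adjusted p = 0.163) and Cd40 (-0.12, adjusted p = 0.532). For Socs2 and Cd40 all bleomycin arrays lay below all saline arrays, which held for 14.6% of all genes. The call on Ccl17 held with any 1 array left out, and 1 or 2 genes of the list were called in 5 of those 6 fits, against 4 without bleomycin E. The part of macrophages and dendritic cells in the rise of Ctsh was not tested.

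Other lysosomal proteases were higher as well. Of 18 genes of precursor processing and lamellar body traffic, 3 rose and 0 fell, and all 3 were cathepsins. Ctsd rose 2.86-fold (12.89 ± 0.17 after bleomycin and 11.37 ± 0.17 after saline, SD, n = 3 each, adjusted p = 0.00116). Ctsb rose 1.84-fold (12.74 ± 0.17 after bleomycin and 11.86 ± 0.07 after saline, SD, n = 3 each, adjusted p = 0.00761), and the mean of all Ctsb probe sets rose by 1.32 log2 units. Ctsl rose 1.58-fold (adjusted p = 0.0196), a call lost without saline A (0.0612), saline B (0.0571) or bleomycin F (0.0825) and with centring on ribosomal protein genes (0.0748). The membrane protein gene Lamp1 differed by 0.05 (adjusted p = 0.801), and Atp8a1, which encodes a lipid flippase, by -0.42 (adjusted p = 0.321). The part of macrophages in the rise of Ctsd, Ctsb and Ctsl was not tested.

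Surfactant is taken up and broken down largely by alveolar macrophages. Of 11 measured genes of uptake, breakdown and feedback, 3 rose and 0 fell, with a list median of 0.22. At an unadjusted p under 0.05, 4 were higher and 1 lower, Bach2 (-0.75, adjusted p = 0.0799). Csf2rb and Csf2ra encode the receptor chains for GM-CSF, the cytokine that alveolar macrophages need to clear surfactant. Csf2rb rose 3.85-fold (9.28 ± 0.44 after bleomycin and 7.34 ± 0.53 after saline, SD, n = 3 each, adjusted p = 0.0104, and 0.0528 without saline A). Its probes may also read a near-identical paralogue that mice carry. Csf2ra rose 2.16-fold, or by 1.11 log2 units (adjusted p = 0.00328), and the mean of all its probe sets by 0.59 (adjusted p = 0.0252). Pla2g15, a lysosomal phospholipase, rose 2.10-fold (adjusted p = 0.00155). Csf2, the gene of GM-CSF itself, differed by 0.11 (adjusted p = 0.621). The part of macrophage number in the rise of Csf2rb, Csf2ra and Pla2g15 was not tested.

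Etv5 is a transcription factor induced by fibroblast growth factor (FGF) signalling and needed for type 2 cell identity in mice. It read 7.72, 8.60 and 8.44 on bleomycin D, E and F, against 8.35, 7.89 and 8.49 on saline A, B and C. Bleomycin D lay below and bleomycin E above all saline arrays, and the difference was 0.01 ± 0.24 (SE, adjusted p = 0.987, 95% interval -0.54 to 0.56). It was -0.17 without saline B and 0.28 without bleomycin D, and its second probe set differed by -0.09.

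Of 13 further genes of FGF signalling, 0 rose and 2 fell (0 higher and 6 lower at an unadjusted p under 0.05), with a median difference of -0.11. Fgfr2, whose epithelial isoform receives FGF7 and FGF10, fell by 1.08 (9.83 ± 0.21 after bleomycin and 10.90 ± 0.13 after saline, SD, n = 3 each, adjusted p = 0.00547). The ligand gene Fgf1 fell by 0.89 (adjusted p = 0.0141, and 0.0574 without saline A and 0.0576 without bleomycin F). Genes that respond to the pathway gave -0.11 for Etv4 (adjusted p = 0.646), -0.61 for Spry2 (adjusted p = 0.121) and 0.25 for Dusp6 (adjusted p = 0.469). Spry1 (-0.39, adjusted p = 0.135) and Spred2 (-0.45, adjusted p = 0.184) also lay below 0. Spry4 (0.07, adjusted p = 0.826) and Spred1 (0.12, adjusted p = 0.649) lay above it. The mean of all Fgfr2 probe sets differed by -0.70 (adjusted p = 0.0081).

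Most genes of the set shared an order among the bleomycin lungs. In 8 of 9 the order was bleomycin D lowest, then F, then E highest, and Ctsh had exactly the reverse order. Over all genes, 20.1% had the first order and 20.7% the reverse. The order was noticed in these values and not tested, and genes read on the same arrays are not independent of each other. The gap from bleomycin D to bleomycin E was widest for Etv5 (0.88), Abca3 (0.85) and Lpcat1 (0.71), and narrowest for Napsa (0.15). Among the 7 other probe sets of these genes, 4 had the same order, and the reverse was seen in 1. The bleomycin arrays spanned a wider range than the saline arrays in 7 of 9 genes, Sftpb and Napsa being the exceptions, while this held for 43.9% of all genes.

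**Figure D3:**
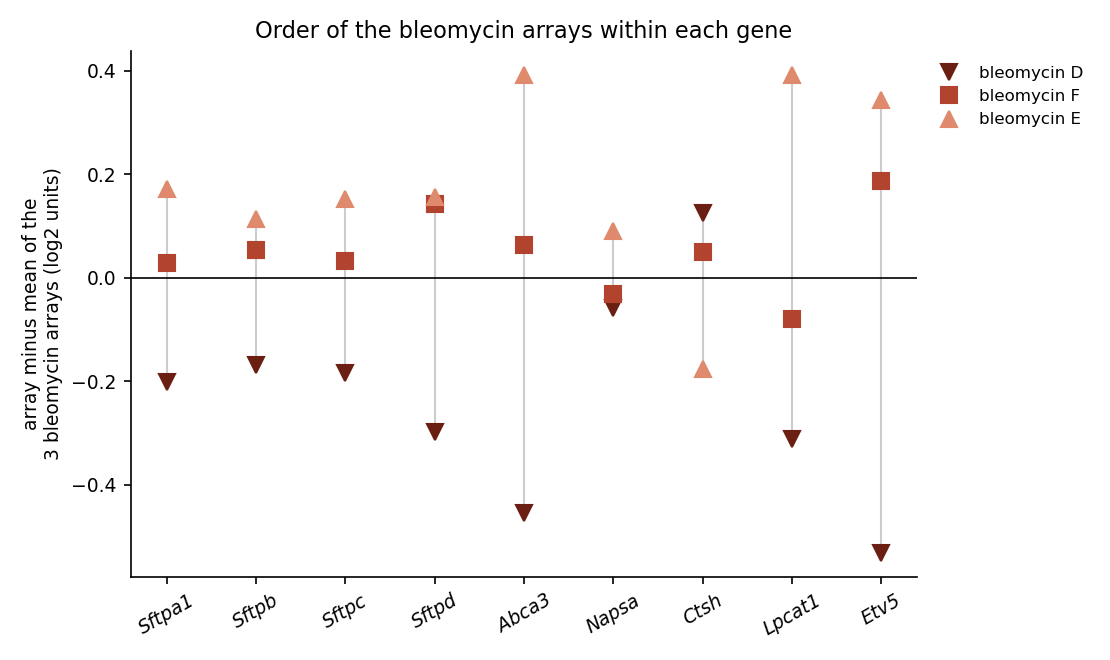
Each bleomycin array minus the mean of the 3 bleomycin arrays (log2 units, y axis) for the 9 measured genes, with a line spanning the range. Bleomycin D lies lowest and bleomycin E highest for 8 genes, and the order is turned round for Ctsh.

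The same order of bleomycin arrays appeared in 11 of 17 other type 2 cell markers, in 6 of 9 type 1 cell markers and in 7 of 15 general epithelial markers. It appeared in 0 of 12 macrophage markers, 4 of which had the reverse order. The mean level of macrophage markers was 10.15 on bleomycin D, against 9.91 on E and 9.85 on F. The mean level of general epithelial markers was 8.73, 8.93 and 8.77 on bleomycin D, E and F. The part of cell composition in this order was not tested.

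Leaving out bleomycin D, the array lowest for 8 of the genes, left the counts as they were. Ctsh still rose (by 0.86, adjusted p = 0.018), and again 5 of the 9 differences lay below 0 and 4 above it, with a median of -0.11. Without saline B, 6 lay below 0 and 3 above it.

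Of 17 other measured markers of type 2 cells, 0 rose and 2 fell in limma (1 and 5 at an unadjusted p under 0.05), and the median difference was -0.16. Slc34a2, the phosphate transporter that recovers phosphate from surfactant, read 12.35, 12.76 and 12.68 on bleomycin D, E and F, against 13.08, 12.88 and 13.21 on saline A, B and C. The groups did not overlap, but the difference of -0.46 ± 0.14 did not pass (SE, adjusted p = 0.114). Lyz2 and Lyz1, lysozyme genes shared by type 2 cells and macrophages, differed by 0.14 (adjusted p = 0.499) and 0.01 (adjusted p = 0.983), and the chemokine gene Cxcl15 by 0.12 (adjusted p = 0.623).

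The markers that fell are not restricted to type 2 cells. Cbr2, a carbonyl reductase also found in club cells of the airways, fell by 0.78 (13.27 ± 0.31 after bleomycin and 14.05 ± 0.14 after saline, SD, n = 3 each, adjusted p = 0.0342). Rnase4, a secreted ribonuclease, fell by 0.56 (11.92 ± 0.16 after bleomycin and 12.48 ± 0.07 after saline, SD, n = 3 each, adjusted p = 0.0356). With 1 array left out, Cbr2 passed only without bleomycin E, and Rnase4 did not pass (adjusted p = 0.0574 to 0.108, and 0.0722 with ribosomal centring).

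Lists of other lung cells were read in the same way. Of 15 general epithelial markers 0 rose and 0 fell by limma (2 higher and 1 lower at an unadjusted p under 0.05), and their mean level per array was 8.73 to 8.93 after bleomycin and 8.73 to 8.92 after saline. Grhl2, an epithelial transcription factor, had the largest difference (-0.42, adjusted p = 0.127), and the adhesion gene Epcam differed by -0.16 (adjusted p = 0.578, and -0.08 without saline B and -0.07 without bleomycin D). The mean of all Grhl2 probe sets differed by -0.23 (adjusted p = 0.219). Of 9 type 1 cell markers 0 rose and 1 fell, Hopx, by 0.44 (adjusted p = 0.0466, a call lost in every fit with 1 array left out, with either centring and with the filter on dim probe sets), and Ager, the receptor for advanced glycation end products, differed by -0.19 (adjusted p = 0.499, and -0.11 without saline B and -0.06 without bleomycin D). At an unadjusted p under 0.05, 0 of the type 1 cell markers were higher and 4 lower. In all, 8 of the 9 differences lay below 0, with a median of -0.39.

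Of 8 club cell markers 0 rose and 1 fell, Cyp2f2, by 0.66 (adjusted p = 0.0463), and the main secretoglobin Scgb1a1 differed by -0.19 (adjusted p = 0.379). All 8 differences lay below 0, with a median of -0.46, and 6 of them had an unadjusted p under 0.05. The call on Cyp2f2 was kept only without bleomycin E among the fits with 1 array left out, and was lost with ribosomal centring (0.072) and repeated quantile normalization (0.0545). Of 9 markers of the transitional state that type 2 cells pass through during repair, 3 rose and 0 fell: the cell cycle inhibitor Cdkn1a, 3.87-fold, Sfn, which encodes 14-3-3 sigma, 2.27-fold, and Lgals3, which encodes galectin 3, 2.03-fold. Lgals3 and Cdkn1a are also expressed by macrophages, whose part here was not tested. The other 6 transitional markers did not pass. Krt8, Krt18 and Krt19 differed by 0.42, 0.56 and 0.23 (adjusted p = 0.0945, 0.0627 and 0.291). Cldn4 and Itgb6 differed by 0.66 and 0.76 (adjusted p = 0.23 and 0.103), and Plaur by -0.03 (adjusted p = 0.907). At an unadjusted p under 0.05, 7 of the transitional markers were higher and 0 lower. Of 10 endothelial markers 0 rose and 2 fell, Ramp2 by 0.87 and Kdr by 0.86. Without saline A neither passed (adjusted p = 0.0584 for each), nor did Kdr without bleomycin F (0.0508). Of the endothelial markers 9 differences lay below 0, with a median of -0.42, and at an unadjusted p under 0.05, 0 were higher and 5 lower.

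**Figure D4:**
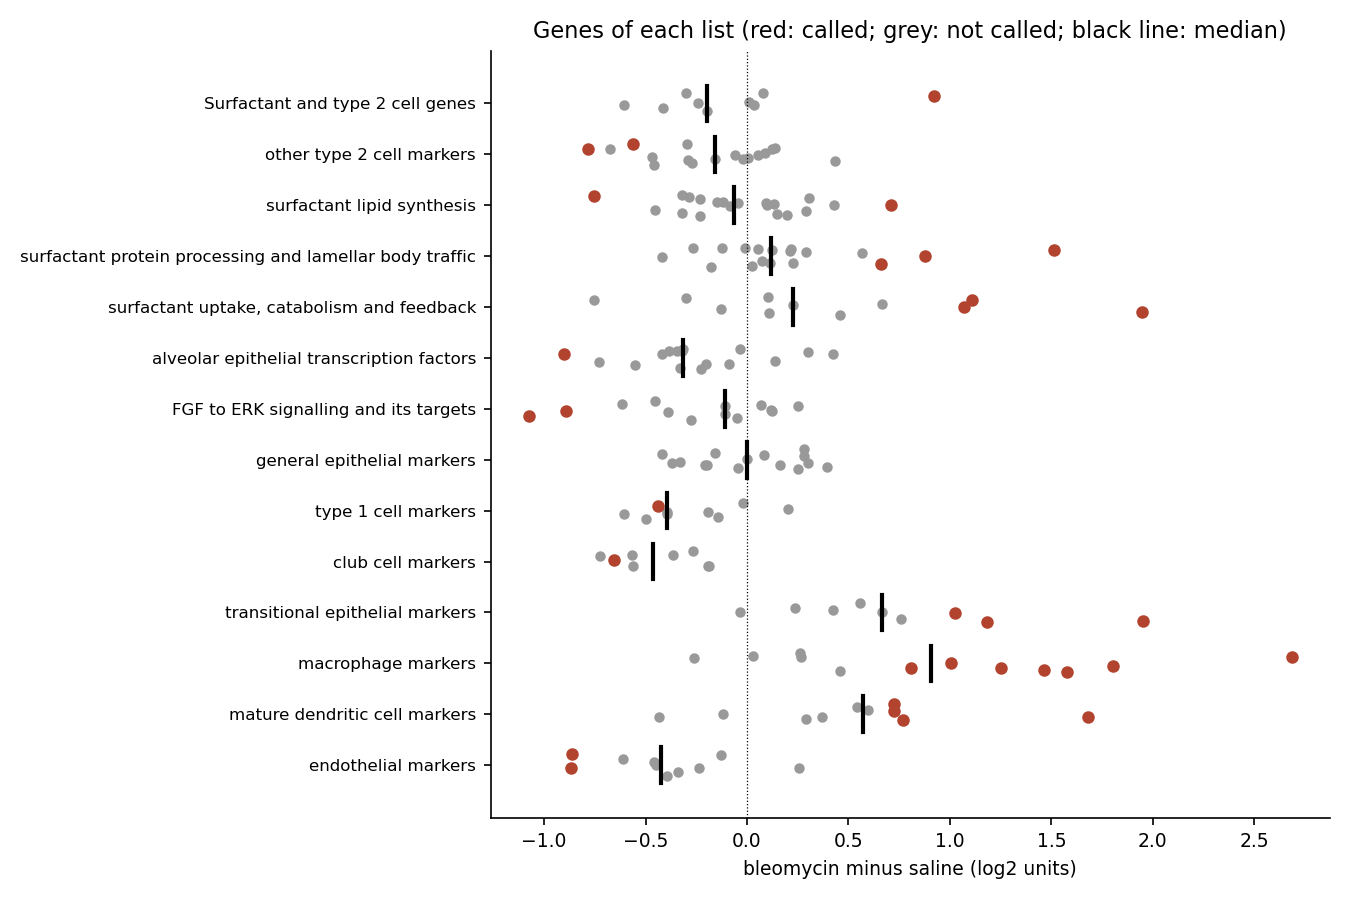
Bleomycin minus saline difference (log2 units, x axis) of each measured gene, by list, where each point is a gene, red points passed an adjusted p of 0.05, grey points did not, and black lines are list medians. The surfactant and type 2 cell genes have a median of -0.20 with Ctsh as the single red point at 0.92, while the macrophage markers have 7 red points, all above 0.

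The 8 genes that did not pass cannot be taken as unchanged. With 3 mice a group the moderated standard errors were 0.12 to 0.24 log2 units. The 95% intervals reached from -1.01 (Lpcat1) to 0.56 (Etv5), and for 7 of the 8 the lower bound lay above -1 log2 unit.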

How the data were processed

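The authors deposited one log2 value per probe set, which the series' design text and the labels describe as RMA with quantile normalization. Software version, background step and chip definition are unstated there. The highest value of an array was 14.23 to 14.42, too high for a natural log of a 16-bit scan, so the base was taken as 2. Scanner files and detection calls were not used here. Of 22690 probe sets 64 controls were left out and 22626 tested. Names came from GEO's platform annotation, updated by Entrez ID through the RefSeq table of GRCm38.p6 (20364 matched). Of the tested probe sets 20380 had 1 symbol, 691 several and 1555 none listed, and those with several or none were not named. Each gene was read by its brightest probe set on average.

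The main test was limma 3.58.1 under R 4.3.3 (lmFit and eBayes, no covariates), with p-values adjusted by Benjamini-Hochberg over all tested probe sets. Each array is described as another mouse. Precision is limited by the number of arrays. For this comparison, simulated data with 22626 probe sets gave 77 of 100 recovered at 1 log2 unit and 97 of 100 at 2, with 9 false calls of 183. The simulated noise was independent between probe sets, with no array that stood apart, and differences under 1 log2 unit were not simulated. These recovery counts therefore do not give the power for the smaller differences of the set. The genes, lists and rule for named genes (all 10 genes, up to 4 called genes of each list, or its largest difference, and 8 fixed genes) were chosen with earlier results of these data known. Named beyond that rule, after their values were seen, were Foxa2, Cebpa, Fasn, Pcyt1a, Itgam, Lamp1, Atp8a1, Csf2, Etv4, Spry2, Dusp6, Lyz1, Lyz2 and Cxcl15. Named in the same way were Csf1r, Marco, Chil3, Mertk, Siglec1, Spry1, Spry4, Spred1 and Spred2. So were Socs2, Cd40, Krt8, Krt18, Krt19, Cldn4, Itgb6, Plaur and Bach2. Adgrf5, one of the fixed genes, had no probe set of its own. Alternatives were a filter on dim probe sets, a trended robust prior, array weights, centring on ribosomal or epithelial genes, repeated quantile normalization, other probe sets, a threshold of 0.01 and leaving out each array. Plots used matplotlib 3.10.9 under Python 3.11.15.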

Additional observations from a re-analysis of the deposited data

How the results depend on the processing

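Ctsh stayed higher and past the threshold in all 13 alternative fits (0.85 to 1.01 log2 units, adjusted p = 0.00264 to 0.0352), and 1 gene of the set was higher in each. Centring on epithelial genes shifted every difference by 0.0020 log2 units and so tests the sizes of the differences little. It did change standard errors, for Ctsh from 0.1235 to 0.1643, and calls. With it 417 genes were higher and 262 lower. The count of lower genes was 0 in each except without bleomycin E, where it was 1 (Lpcat1), so with 1 array left out it was 0 to 1. Genes with differences near 0 turned sign with no call. Napsa differed by -0.0104 with ribosomal centring, by -0.0468 with repeated quantile normalization, and by -0.0936 to 0.1125 with 1 array left out. Etv5 differed by -0.0353 and -0.0219 in the same fits, by -0.0417 as the mean of its probe sets, by -0.0928 in its other probe set, and by -0.166 to 0.2751 with 1 array left out. The other probe sets that turned sign gave 0.0085 for Sftpc and 0.0504 for Abca3. Over all genes, 458 were higher and 236 lower. With 1 array left out, 163 to 385 were higher and 22 to 165 lower, and at an adjusted p of 0.01 the counts were 143 and 20. Fits with fewer arrays have less power. At that stricter threshold Ctsh still passed. No paired analysis was possible because the array letters are not shared between groups.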
